A study of Bos taurus with 25 samples.

Results

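The genes described here are the bovine proteasome genes, taken as every gene whose current symbol begins with PSMA, PSMB, PSMC, PSMD, PSME or PSMF and to which a probe name of the array could be matched. The rule found 42 genes, measured by 82 of 43653 probes, among 27841 genes and names with a value. Of these, 26 genes had more than 1 probe, whose log2 values were averaged, and 16 had 1 probe. No probe name matched PSMA8, PSMC3IP, PSME3 or PSME4, so these were not analysed here. The rule also took in PSME3IP1, which codes for a protein that interacts with a proteasome activator and is not a subunit, and PSMB11, the catalytic subunit of the thymus.

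The samples were biopsies of 13 multiparous Holstein cows, taken 64 ± 3 days after calving. Each cow had been injected once a week in the muscle with 5 mL of 0.9% NaCl (Ctl), of 320 mg folic acid (B9), of 10 mg cyanocobalamin (B12) or of both vitamins (B9_B12). Liver was measured on 12 arrays (3 Ctl, 3 B9, 4 B12 and 2 B9_B12) and mammary gland on 13 (3 Ctl, 3 B9, 4 B12 and 3 B9_B12), and 12 cows gave both tissues. Each array measured 1 biopsy of 1 cow. The spread within a group thus mixed that between animals with that of biopsies and arrays, which cannot be separated.

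The proteasome is the complex that degrades proteins tagged with ubiquitin. Its barrel-shaped core particle has outer rings of alpha subunits (PSMA) and inner rings of beta subunits (PSMB), of which PSMB5, PSMB6 and PSMB7 cut peptide bonds. A regulatory particle, made of ATPases (PSMC) and further subunits (PSMD), binds the ubiquitin chain, removes it and feeds the unfolded protein into the core. Interferon gamma induces PSMB8, PSMB9 and PSMB10, which take the places of PSMB5, PSMB6 and PSMB7 in newly made cores, and PSME1 and PSME2, which form an activator that caps the core. The core that holds the induced subunits is the immunoproteasome, abundant in leukocytes and known for making peptides for antigen presentation. These 5 genes are given apart from the other 37 below.

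Every one of the 85 spots of the 42 genes was well above background on all 25 arrays and none was saturated. The share of all spots well above background ranged from 71.2% to 84.2% on the liver arrays and from 64.5% to 76.5% on the mammary arrays. On the liver arrays of cow 57 (B9) and cow 32 (B9_B12) the median correlation with the other liver arrays was 0.968 and 0.969, and on the remaining liver arrays it was at least 0.988. These 2 arrays also stood apart in proteasome genes. The 7 alpha ring genes had a mean deviation from the liver mean of −0.83 on the log2 scale in cow 32 and of −0.39 in cow 57, and of −0.15 to 0.21 on the remaining liver arrays. Results on liver are therefore given without these 2 arrays as well where that changed them. The hepatocyte markers had a mean log2 signal of 15.4 to 15.9 in liver and of 7.66 to 9.03 in mammary gland, and the milk protein and secretory markers of 7.87 to 9.65 in liver and of 17.2 to 17.5 in mammary gland, on the scale common to both tissues.

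The first comparison was between the tissues. It used scanner signals normalised over all 25 arrays together, with the treatments weighted equally, since the authors' table was normalised apart in each tissue. Of the 42 genes, 21 were higher in liver and 9 were lower at an adjusted p of at most 0.05 (limma, Benjamini-Hochberg over all genes). In the whole array 24.9% of genes were higher and 36.7% lower by the same rule. On these values no proteasome gene mean reached a 2-fold difference, a size that 7.73% of all genes reached as higher and 8.81% as lower. Single probes of PSMD8 passed that size, at −1.38 and −1.25 on the log2 scale. With the authors' table gene means passed it too, such as PSMC2 at 1.48. The core rings were mostly higher in liver, while PSMB8, PSMB9, the ATPases PSMC2, PSMC3 and PSMC5 and the lid subunit PSMD8 were lower. The signs depended on the normalisation. Of all genes called, 40.4% were higher in liver, against 90.7% with the authors' table and 28.3% and 16.4% with scaling to the 75th percentile of the processed or of the background-corrected signal. With the table of the authors, 42 of 42 genes were higher in liver, as were 80.8% of all genes, and the median of all genes moved to 0.47. With the scanner's processed signal scaled to its 75th percentile 4 genes were lower and the median of all genes moved to −0.58. Differences among the genes, such as the median of the 5 immunoproteasome genes below that of the other 37, were less open to this shift. These 5 genes, from −0.68 to 0.13, all lay within the range of the other 37, from −0.81 to 0.96. Their median minus that of the other 37 was −0.50, and from −0.75 to −0.38 under the alternatives run.

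The alpha ring, which closes and opens the core, was higher in liver as a group. All 7 genes had a difference above 0, with a median of 0.39 on the log2 scale, and 6 passed the test. PSMA4 ranged from 9.96 to 10.48 in liver (median 10.18) and from 9.27 to 9.74 in mammary gland (median 9.45). The ranges did not overlap, and the difference was 0.69 (SE 0.06, adjusted p = 2.51e-09). PSMA7 ranged from 12.38 to 12.71 in liver and from 12.09 to 12.22 in mammary gland, a difference of 0.39 (SE 0.03, adjusted p = 7.07e-10). These genes were higher in liver in 12 of 12 cows. PSMA3, with 0.29 (SE 0.15, adjusted p = 0.0914), did not pass, and its lowest liver value, 9.71, lay below all of its mammary values, which began at 10.38.

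The beta ring genes without a catalytic role were also higher in liver, 4 of 4 past the test. PSMB2 ranged from 11.06 to 11.59 in liver (median 11.35) and from 10.22 to 10.56 in mammary gland (median 10.35), and differed by 0.96 (SE 0.06, adjusted p = 1.33e-11). The tissues did not overlap, and PSMB2 was higher in liver in 12 of 12 cows, by 0.73 to 1.24. PSMB1, PSMB3 and PSMB4 differed by 0.18, 0.35 and 0.25. Of the constitutive catalytic subunits, PSMB7, which gives the trypsin-like activity, was higher in liver by 0.21 (SE 0.04, adjusted p = 8.99e-05). This rested on 1 of its 2 probes, at 0.45, while the brighter probe was at −0.022 and did not pass (adjusted p = 0.80). PSMB5, the chymotrypsin-like subunit, and PSMB6, the caspase-like subunit, had differences of 0.06 (SE 0.09, adjusted p = 0.57) and 0.06 (SE 0.06, adjusted p = 0.47).

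The inducible catalytic subunits lay on the other side. PSMB8, the counterpart of PSMB5, ranged from 9.42 to 10.46 in liver (median 9.96) and from 10.22 to 11.14 in mammary gland (median 10.63). The ranges overlapped between 10.22 and 10.46, and PSMB8 was lower in liver in 11 of 12 cows. The difference was −0.68 (SE 0.11, adjusted p = 1.12e-05), or 1.60-fold. PSMB9, the counterpart of PSMB6, ranged from 10.35 to 11.44 in liver (median 10.89) and from 10.71 to 11.91 in mammary gland (median 11.43). It was lower in liver in 9 of 12 cows, by −0.49 over all arrays (SE 0.14, adjusted p = 0.00397), a call that was lost with the slide as a fixed block (−0.49, adjusted p = 0.0847) and with scaling to the 75th percentile of the processed signal (−0.18, adjusted p = 0.367) or of the background-corrected one (−0.11, adjusted p = 0.473). PSMB10, the counterpart of PSMB7, ranged from 9.06 to 10.27 in liver (median 9.71) and from 9.17 to 10.39 in mammary gland (median 9.90), and was lower in liver in 7 of 12 cows. Its difference of −0.25 (SE 0.13) did not pass (adjusted p = 0.117), and it was −0.39 (adjusted p = 0.0194) without the liver arrays of cows 57 and 32. The activator genes did not follow the catalytic ones. PSME1 ranged from 12.42 to 13.45 in liver (median 12.96) and from 12.58 to 13.08 in mammary gland (median 12.81), a difference of 0.07 (SE 0.08, adjusted p = 0.505). PSME2 ranged from 12.31 to 12.99 in liver (median 12.62) and from 12.19 to 12.92 in mammary gland (median 12.47), a difference of 0.13 (SE 0.07, adjusted p = 0.122). PSME1, PSME2, PSMB5 and PSMB6 passed as higher in liver with both 75th percentile scalings, with the authors' table and with quantiles within each tissue. In such bulk samples, fewer cells of a type and less RNA per cell cannot be told apart.

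**Figure D1:**
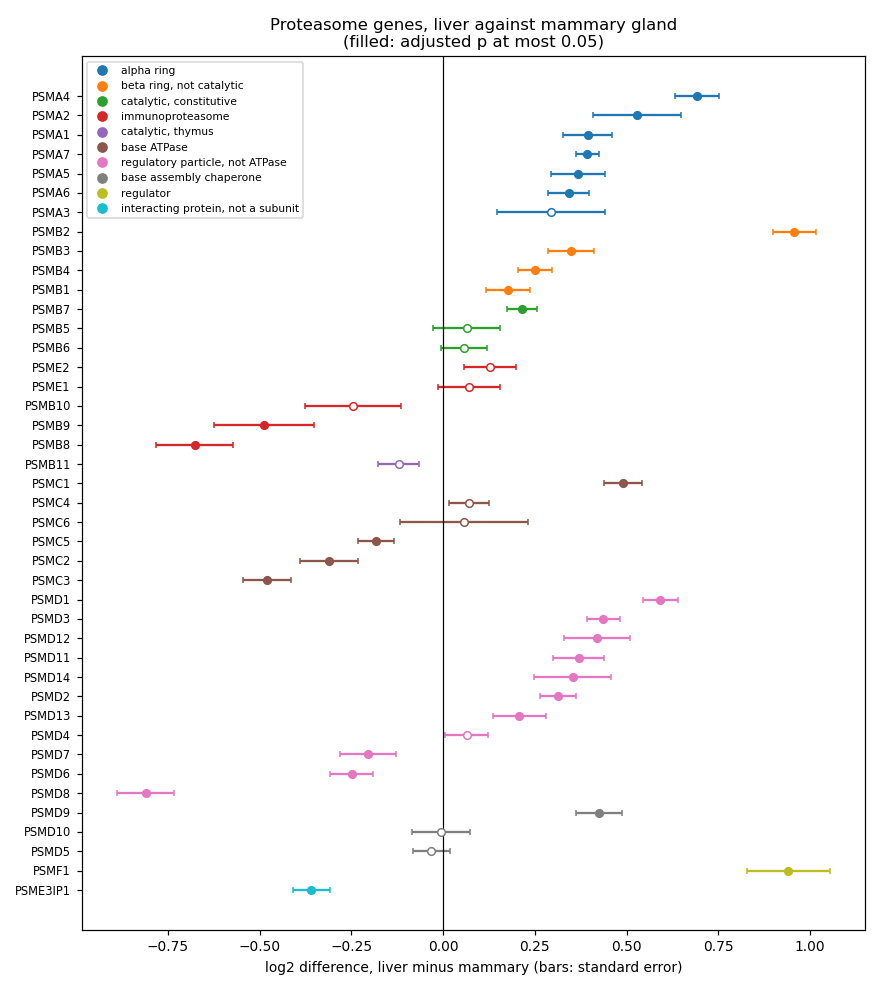
Log2 difference between liver and mammary gland for the 42 proteasome genes, grouped by role, with limma standard errors as bars and filled points where the adjusted p was at most 0.05, on values normalised over all 25 arrays. The alpha ring genes and the beta ring genes that are constitutive or not catalytic lie to the right of 0. PSMB8, PSMB9, PSMB10, PSMB11 and PSMD8 are among those to the left. PSMB2 at 0.96 and PSMD8 at −0.81 are the ends.

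Since each inducible subunit replaces a constitutive one, the tissue difference of each pair was also taken within cows. For every cow with both tissues, the inducible gene minus its counterpart in mammary gland was subtracted from the same quantity in liver. This compares 2 differences and gives no ratio of the proteins or of the transcripts. For PSMB8 and PSMB5 the mean was −0.74 (SD 0.26, n = 12 cows), with every cow below 0, from −1.18 to −0.32. The exact sign-flip permutation test, two-sided, gave p = 0.000488, the smallest value 12 cows allow, or 0.00146 after adjustment over the 3 pairs. For PSMB9 and PSMB6 the mean was −0.49 (SD 0.41), with 11 of 12 cows below 0 (exact permutation p = 0.00244, adjusted p = 0.00366). For PSMB10 and PSMB7 the mean was −0.40 (SD 0.53), with 9 of 12 cows below 0 (exact permutation p = 0.0283, adjusted p = 0.0283). The last value rested on single cows and on a probe: leaving out 1 cow gave −0.48 to −0.32, and 5 of the 12 omissions gave an adjusted p above 0.05, and the brightest probe of each gene gave −0.16 (adjusted p = 0.353). In the 3 pairs the mean was below 0 under each set of values run, from −1.15 to −0.74 for PSMB8 and PSMB5, from −0.91 to −0.49 for PSMB9 and PSMB6, and from −0.80 to −0.16 for PSMB10 and PSMB7.

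**Figure D2:**
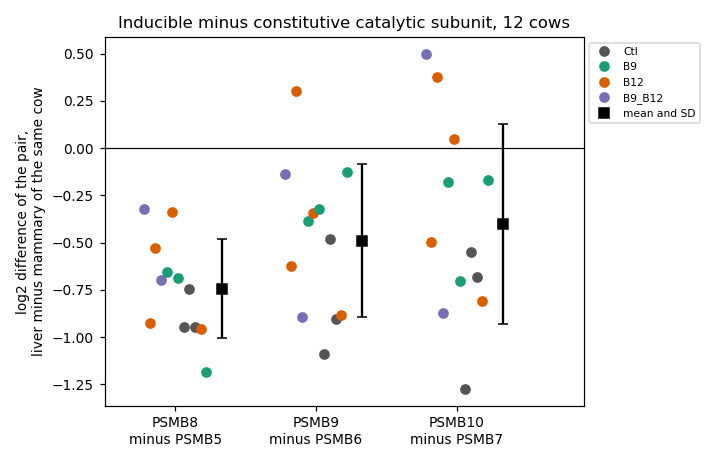
Inducible minus constitutive catalytic subunit, as liver minus mammary gland of the same cow on the log2 scale, with 1 point per cow (12 cows, coloured by treatment) and the mean and SD as a square with bars. All 12 points lie below 0 for PSMB8 minus PSMB5, 11 for PSMB9 minus PSMB6 and 9 for PSMB10 minus PSMB7.

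In the regulatory particle the ATPases were split. PSMC1 was higher in liver, with 10.82 to 11.29 against 10.20 to 10.67 in mammary gland and no overlap (difference 0.49, SE 0.05, adjusted p = 5.23e-08). PSMC3 was lower, with 10.75 to 11.36 against 11.30 to 11.76, in 12 of 12 cows (−0.48, SE 0.07, adjusted p = 2.2e-06). Of its 2 probes 1 was at −0.87 and the other at −0.092, which did not pass (adjusted p = 0.354). With the processed and the background-corrected signal scaled to the 75th percentile it was −0.19 (adjusted p = 0.117) and −0.067 (adjusted p = 0.516), and the call was lost. PSMC2 and PSMC5 were lower by 0.31 and 0.18 in size, and PSMC4 and PSMC6 did not pass, at 0.07 (SE 0.05) and 0.06 (SE 0.17). PSMC2 was one of the genes whose direction turned with the scaling: it was 0.11 and 0.28 with both kinds of 75th percentile scaling. Its call was also lost with the slide as a fixed block (limma adjusted p = 0.210). Of the 11 other subunits of the regulatory particle, 7 were higher in liver and 3 lower. PSMD1, a large scaffold subunit, was 10.00 to 10.46 in liver and 9.48 to 9.75 in mammary gland, with no overlap (0.59, SE 0.05, adjusted p = 9.79e-10). PSMD3, PSMD11 and PSMD12 of the lid were higher by 0.44, 0.37 and 0.42, and PSMD14, the enzyme that removes the ubiquitin chain, by 0.35 (SE 0.10, adjusted p = 0.00615). PSMD8, also of the lid, was lower in liver, with 11.98 to 13.04 in liver and 12.99 to 13.54 in mammary gland (−0.81, SE 0.08, adjusted p = 1.4e-08), in 11 of 12 cows. PSMD6 and PSMD7 were lower by 0.25 and 0.21 in size. PSMD4, a receptor for ubiquitin chains, differed by 0.06 (SE 0.06) and did not pass.

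Among the remaining genes, PSMF1, an inhibitor of the core particle, was 9.77 to 10.97 in liver and 8.91 to 9.50 in mammary gland, with no overlap and higher in 12 of 12 cows (0.94, SE 0.11, adjusted p = 3.73e-07). Of the chaperones that help to assemble the base of the regulatory particle, PSMD9 was higher in liver (0.42, SE 0.06, adjusted p = 5.9e-06), and PSMD5 and PSMD10 had differences of −0.03 (SE 0.05) and −0.01 (SE 0.08). PSME3IP1 was lower in liver in 12 of 12 cows (−0.36, SE 0.05, adjusted p = 2.25e-06), and PSMB11 had a difference of −0.12 (SE 0.06, adjusted p = 0.0699). The arrays of the tissues did not overlap for 8 genes, all higher in liver (PSMA4, PSMA7, PSMB2, PSMC1, PSMD1, PSMD3, PSMD9 and PSMF1), where 11.7% of all genes were apart in this direction and 15.2% in the other.

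The probes of a gene did not always move together between tissues. For 3 genes, probes passed the threshold in opposite directions. PSMB9 had probes at −0.95 and −0.91 and another at 0.41. PSMD8 had probes at −1.38 and −1.25 and another at 0.20. PSMD13 had a probe at −0.21 and others at 0.36 and 0.47, so that its mean, 0.21 (adjusted p = 0.0179), took the sign of the majority. This call of PSMD13 was lost with the slide as a fixed block (0.042, adjusted p = 0.828) and without the liver arrays of cows 57 and 32 (0.11, adjusted p = 0.131), and also without that of cow 32 alone (0.16, adjusted p = 0.0844). The lower level of PSMB9 and PSMD8 in liver is thus a statement about their mean and most of their probes. For PSMA6, PSMC5 and PSMD14, which passed, 1 probe each did not, at 0.068, −0.010 and 0.29. All 3 probes of PSMB8 were lower in liver, by −0.90, −0.64 and −0.49. Which transcript each probe reads was not analysed here.

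**Figure D3:**
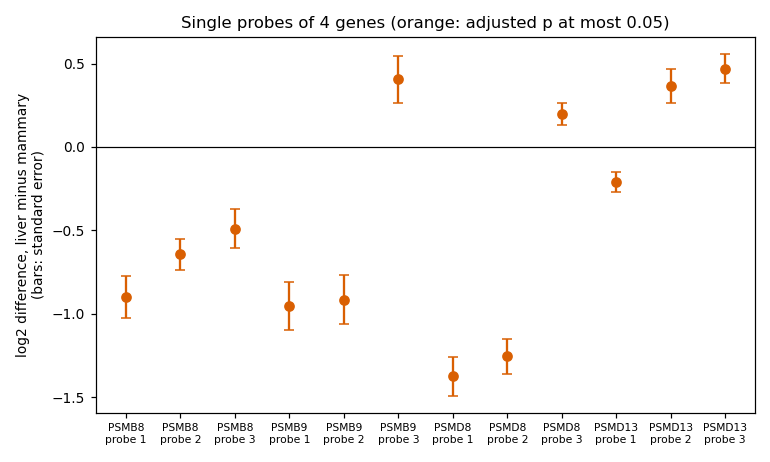
Log2 difference between liver and mammary gland for each single probe of PSMB8, PSMB9, PSMD8 and PSMD13, with limma standard errors as bars. The 3 probes of PSMB8 lie below 0, while PSMB9, PSMD8 and PSMD13 each have probes on both sides, all past an adjusted p of 0.05.

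Genes around the proteasome were followed by fixed lists. Of the 11 interferon-stimulated genes measured, 9 were higher in liver and 1 lower. ISG15, a ubiquitin-like modifier, and IFI6 differed by 2.66 and 2.28, OAS1Y by 3.43 and HERC6 by −2.81. Of 10 antigen processing genes 2 were higher and 4 lower, among them TAP1, a peptide transporter whose gene neighbours that of PSMB9 (−0.31), and B2M, the light chain of class I molecules (−0.41). Of 8 assembly and regulation genes 3 were higher and 2 lower, with PAAF1 at 1.32, POMP, the maturation factor of the core, at −0.28 and PSMG1 at −0.75. Of 10 further proteasome-bound proteins 7 were higher and 1 lower, and of 9 genes of ubiquitin and of protein unfolding 3 were higher and 5 lower.

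Markers of other cells moved between the tissues too. The mean log2 signal of 4 leukocyte genes ranged from 9.79 to 10.37 in liver and from 9.15 to 9.96 in mammary gland, and 3 of the 4 were higher in liver. Of 5 macrophage genes 5 were higher in liver (9.89 to 10.20 against 8.23 to 8.76). The 6 T cell genes ranged from 7.75 to 8.27 and from 7.61 to 8.14, and of these 3 were higher and 1 lower. The 4 B and plasma cell genes ranged from 7.13 to 8.21 in liver and from 7.93 to 8.94 in mammary gland, with 2 higher and 2 lower, among them the plasma cell genes JCHAIN (−1.90) and MZB1 (−1.41). MS4A1 was well above background on 8 of the 25 arrays, GZMA on 16 and CD163 on 22, and the other markers on all of them. The part of these cells and of the interferon-stimulated genes in the proteasome values was not tested.

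The second question was what the vitamins did to these genes within a tissue. Unless stated otherwise, values from here on are log2 signals of the authors' table. Changes are against Ctl of the same tissue unless another contrast is named. No proteasome gene passed an adjusted p of 0.05 in any of the 6 comparisons with Ctl by limma or by Cyber-T, the test the methods name. Over all genes limma called 1 gene in B12 liver (0.00359%) and 0 in the other 5. At an unadjusted p below 0.05 limma had 2 proteasome genes in B9 liver, 1 in B12 liver and 2 in B9_B12 liver, and 2, 0 and 2 in mammary gland, of 42 each time. In all genes these shares were 3.29%, 1.97% and 5.87% in liver and 2.68%, 2.43% and 2.05% in mammary gland, so that the proteasome genes were near the background. Cyber-T called 0.00718%, 0.169% and 0.0683% of all genes at an adjusted p of 0.05 in B9, B12 and B9_B12 liver and 0.0144%, 0.0216% and 0.0251% in mammary gland. At an unadjusted p below 0.05 it had 0, 2 and 3 proteasome genes in liver (4.3%, 4.56% and 6.27% of all genes) and 2, 0 and 2 in mammary gland (3.68%, 3.8% and 3.58%). The values below are therefore descriptions of single arrays.

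**Figure D4:**
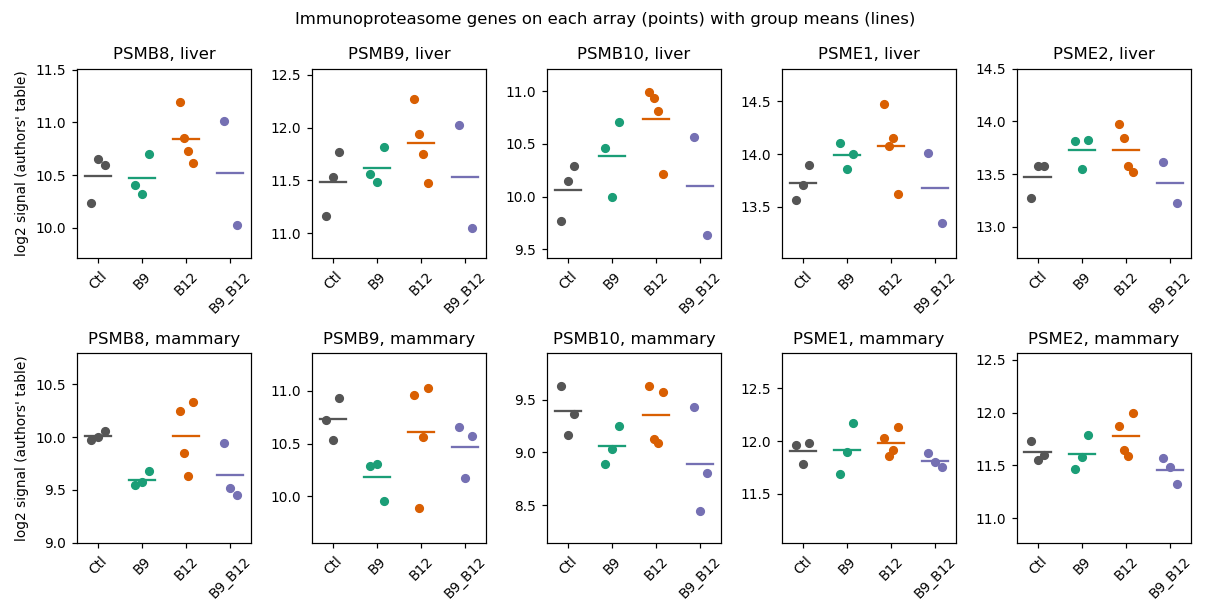
Log2 signal of PSMB8, PSMB9, PSMB10, PSME1 and PSME2 on each array by treatment, liver in the upper and mammary gland in the lower row, with 1 point per array and lines at group means; each panel spans 1.8 log2 units. In B9 mammary gland the 3 arrays of PSMB8 and of PSMB9 lie below the 3 Ctl arrays, and in liver the points of all groups overlap.

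In B12 liver all 5 immunoproteasome genes had means above Ctl, with a median of 0.35, against 0.09 for the other 37 and 0.00 for all genes. PSMB10 was 9.76, 10.14 and 10.29 in Ctl and 10.99, 10.94, 10.81 and 10.22 in B12. Of the 4 B12 arrays 3 lay above all Ctl arrays, and the difference was 0.67 (SE 0.27, limma adjusted p = 1.00). PSMB8 was 10.23, 10.65 and 10.60 in Ctl and 11.19, 10.85, 10.73 and 10.61 in B12 (0.35, SE 0.23). PSMB9 was 11.16, 11.53 and 11.77 in Ctl and 12.27, 11.94, 11.75 and 11.48 in B12 (0.37, SE 0.25). PSME1 was 13.56, 13.71 and 13.90 in Ctl and 14.47, 14.07, 14.15 and 13.62 in B12 (0.35, SE 0.21). PSME2 was 13.28, 13.58 and 13.58 in Ctl and 13.98, 13.84, 13.58 and 13.52 in B12 (0.25, SE 0.15). The groups overlapped for all 5, and of the B12 arrays that of cow 36 held the highest value of each gene and that of cow 52 the lowest. Within slides that held both groups, PSMB10 was 0.52 and 0.79 above Ctl, PSMB8 0.14 and 0.20, and PSMB9 −0.03 and 0.40. Leaving out 1 array at a time gave 0.22 to 0.50 for the median of the 5, 0.22 to 0.43 for PSMB8, 0.21 to 0.51 for PSMB9, 0.52 to 0.85 for PSMB10, 0.22 to 0.51 for PSME1 and 0.15 to 0.32 for PSME2. The median of the 5 was 0.13 once the slide was a fixed block.

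Interferon-stimulated genes were also higher in B12 liver than in Ctl. All 11 had means above Ctl in B12 liver, with a median of 1.12, 6 of them at an unadjusted p below 0.05 and 1 past the adjusted threshold. Their mean signal ranged from 10.26 to 11.80 in B12 liver and from 9.51 to 9.78 in Ctl liver. On the array of cow 52 the mean deviation of the 5 immunoproteasome genes from the liver mean was −0.15. On the Ctl arrays it was −0.44 to −0.01. The secretory markers reached 10.04 in B12 liver against 8.09 at most in Ctl, and the leukocyte genes ranged from 10.64 to 10.83 against 10.41 to 10.67. What part these had in the immunoproteasome values was not tested.

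Among the other genes in B12 liver, 5 were higher on all 4 arrays than on every Ctl array (PSMA2, PSMA5, PSMA7, PSMB4 and PSMD4), while 2.45% of all genes were so, and none was lower on all arrays, as 2.69% of all genes were. PSMA7 was 13.37, 13.57 and 13.30 in Ctl and 13.67, 13.62, 13.59 and 13.61 in B12 (0.21). The means of 34 of 42 genes lay above Ctl, as did 49.9% of all genes. PSMD11 had the smallest p of those below Ctl, at −0.16.

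In B9 liver 32 of 42 means lay above Ctl, as did 53.4% of all genes. The medians were 0.25 for the 5 immunoproteasome genes, 0.10 for the other 37 and 0.02 for all genes. PSMD8 was 13.39, 12.87 and 13.39 in Ctl and 13.54, 13.57 and 13.97 in B9 (0.48, SE 0.18, limma adjusted p = 0.882). PSMB5, the constitutive chymotrypsin-like subunit, was 13.51, 13.17 and 13.57 in Ctl and 13.68, 13.79 and 13.82 in B9 (0.35, SE 0.14, limma adjusted p = 0.882). These were the only 2 proteasome genes whose groups did not overlap, both higher, where 4.15% of all genes were apart in this direction and 4.28% in the other. With 3 arrays against 3 an exact permutation test cannot go below 0.1. The inducible catalytic subunits overlapped with Ctl. PSMB10 was 10.46, 10.00 and 10.71 in B9 (0.32, SE 0.29), PSMB8 10.40, 10.32 and 10.701 (−0.02, SE 0.24), and PSMB9 11.57, 11.49 and 11.81 (0.13, SE 0.27). PSME1 was 14.10, 13.86 and 14.00 and PSME2 13.82, 13.55 and 13.82 (differences 0.26, SE 0.22, and 0.25, SE 0.16). PSMD7 had the smallest p of those below Ctl, at −0.20, and was −0.35 to −0.0095 when 1 array was left out. Without the array of cow 57 PSMB10 was 0.16, PSMB9 0.036 and PSMB8 −0.13, and the median of the 5 was 0.16. Leaving out each array in turn gave 0.15 to 0.33 for this median, 0.16 to 0.52 for PSMB10 and 0.31 to 0.57 for PSMD8. The values moved with the slide. On the 1 slide with both groups, which held the B9 array of cow 57, PSMB8 was 0.47 and PSMB10 0.94 above Ctl, and the median of the 5 was 0.62 once the slide was a fixed block.

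In B9_B12 liver, which had 2 arrays, 2 of the 7 alpha ring genes lay below Ctl on both. PSMA1 was 13.55, 13.34 and 13.43 in Ctl and 12.57 and 13.04 in B9_B12 (−0.64, SE 0.20, limma adjusted p = 0.655). PSMA6 was 13.53, 13.77 and 13.79 in Ctl and 13.02 and 13.42 in B9_B12 (−0.48, SE 0.16, limma adjusted p = 0.655). Groups did not overlap for 4 genes that were lower (PSMA1, PSMA6, PSMD11 and PSMD12), where 9.67% of all genes were apart, and for 2 that were higher (PSMD8 and PSMD9), where 12.5% were. In each the lower of the B9_B12 values of PSMA1 and PSMA6 was that of cow 32, whose array stood apart. Without the arrays of cows 32 and 57, PSMA1 was −0.40, and that value compared a single B9_B12 array with Ctl. The 5 immunoproteasome genes were split between the 2 cows. PSMB8 was 11.01 and 10.03, PSMB9 12.02 and 11.05, PSMB10 10.56 and 9.64, PSME1 14.01 and 13.35, and PSME2 13.61 and 13.23, in cow 32 and cow 38 in turn. Cow 32 lay above the Ctl arrays in all 5 and cow 38 below them in all 5. The leukocyte, T cell and B and plasma cell signals were 11.06, 8.32 and 8.39 in cow 32 and 10.59, 8.02 and 8.03 in cow 38, against at most 10.67, 7.93 and 7.93 in Ctl, and the part of these cells was not tested. Their median change of 0.03 (other 37, −0.02; all genes, 0.03) was −0.43 without the 2 arrays that stood apart. Leaving out 1 array at a time gave −0.43 to 0.50.

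In mammary gland the B9 group had lower values of 2 inducible catalytic subunits, neither past the adjusted threshold. PSMB8 was 9.97, 10.00 and 10.06 in Ctl and 9.54, 9.57 and 9.68 in B9. Every B9 array lay below every Ctl array, and the difference was −0.42 (SE 0.17, limma adjusted p = 1.00). PSMB9 was 10.73, 10.53 and 10.93 in Ctl and 10.28, 10.30 and 9.96 in B9, again with no overlap (−0.55, SE 0.26). These were the only proteasome genes lower on all B9 arrays, 2 of 42, a share near the 3.37% of all genes. PSMB10 was 9.63, 9.16 and 9.37 in Ctl and 8.89, 9.03 and 9.25 in B9 (−0.33, SE 0.23). PSME1 was 11.96, 11.78 and 11.98 in Ctl and 11.69, 11.90 and 12.17 in B9 (0.01, SE 0.12). PSME2 was 11.73, 11.55 and 11.60 in Ctl and 11.47, 11.58 and 11.79 in B9 (−0.01, SE 0.12). The activator genes thus had differences near 0 beside the catalytic ones. The median of the 5 was −0.33, against 0.01 for the other 37 and 0.00 for all genes. Leaving out 1 array at a time gave −0.43 to −0.21 for this median, −0.46 to −0.39 for PSMB8, −0.65 to −0.44 for PSMB9 and −0.44 to −0.21 for PSMB10. On the slide with arrays of both groups PSMB8, PSMB9 and PSMB10 were −0.52, −0.65 and −0.47 from the Ctl array. All 3 probes of PSMB8 (−0.40, −0.44 and −0.41) and all 3 of PSMB9 (−0.60, −0.61 and −0.43) were below Ctl. The leukocyte genes ranged from 8.49 to 8.90 in B9 and from 8.81 to 9.04 in Ctl, and the T cell genes from 6.63 to 6.83 and from 6.81 to 7.20. The B and plasma cell genes ranged from 7.003 to 7.49 and from 7.46 to 8.005. The part of these cells in the lower values was not tested.

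Of the other genes, 3 were higher on all B9 mammary arrays (PSMD1, PSMD5 and PSMD7), where 3.71% of all genes were. PSMD5, a chaperone of the base, was 7.24, 7.06 and 7.05 in Ctl and 7.30, 7.33 and 7.33 in B9 (0.20, SE 0.08, limma adjusted p = 1.00). PSMB2 had the smallest p of those below Ctl outside the immunoproteasome, at −0.12, and was −0.18 to −0.063 when 1 array was left out. The means of 20 of 42 genes lay above Ctl, as did 49.5% of all genes.

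In B12 mammary gland 18 of 42 means lay above Ctl, as did 50.1% of all genes, and the median of the 5 immunoproteasome genes was 0.00 (other 37, −0.01). Their arrays were wide apart. PSMB8 was 10.25, 9.85, 9.63 and 10.33, PSMB9 10.96, 9.89, 10.56 and 11.02, and PSMB10 9.63, 9.13, 9.09 and 9.57 in B12. Cows 36 and 52 were high in all 3 and cows 37 and 40 low, so that the Ctl values lay between them for PSMB8. PSME1 was 12.03, 11.86, 11.91 and 12.13, and PSME2 11.88, 11.65, 11.59 and 12.00, with the same cows high. On the slide that held cow 52, PSMB8 was 0.33 above Ctl, and on that of cow 40 it was −0.43. PSMC1 and PSMD3 were higher on all B12 arrays than in Ctl, where 2.28% of all genes were, and none was lower on all of them, as 1.71% of all genes were. PSMD5 (0.15) and PSMD13 (−0.11) had the smallest p each way, and PSMD13 was −0.16 to −0.052 when 1 array was left out. The interferon-stimulated genes had 10 of 11 means above Ctl with a median of 0.59.

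In B9_B12 mammary gland 4 of 42 means lay above Ctl, while 49.2% of all genes lay above. PSMB3, a beta ring subunit, was 10.38, 10.27 and 10.35 in Ctl and 10.13, 10.05 and 10.14 in B9_B12 (−0.23, SE 0.07, limma adjusted p = 1.00). PSMB8 was 9.94, 9.52 and 9.46 (−0.37, SE 0.17) and PSMB10 9.43, 8.44 and 8.81 (−0.50, SE 0.23) in B9_B12. PSMB9 was 10.66, 10.18 and 10.57 (−0.26, SE 0.26), PSME1 11.89, 11.80 and 11.75 (−0.10, SE 0.12) and PSME2 11.57, 11.48 and 11.32 (−0.16, SE 0.12). Groups did not overlap for 4 genes, all lower (PSMA1, PSMB3, PSMB8 and PSMD3), where 3.61% of all genes were apart in this direction and 3.54% in the other. PSMD3 was 8.64, 8.63 and 8.61 in Ctl and 8.44, 8.54 and 8.44 in B9_B12 (−0.16, SE 0.07). The median was −0.26 for the 5 and −0.09 for the other 37. Leaving out 1 array at a time gave −0.36 to −0.12 for PSMB9 and −0.77 to −0.27 for PSMB10. Within the 3 slides with both groups PSMB8 was −0.48, −0.61 and −0.03.

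**Figure D5:**
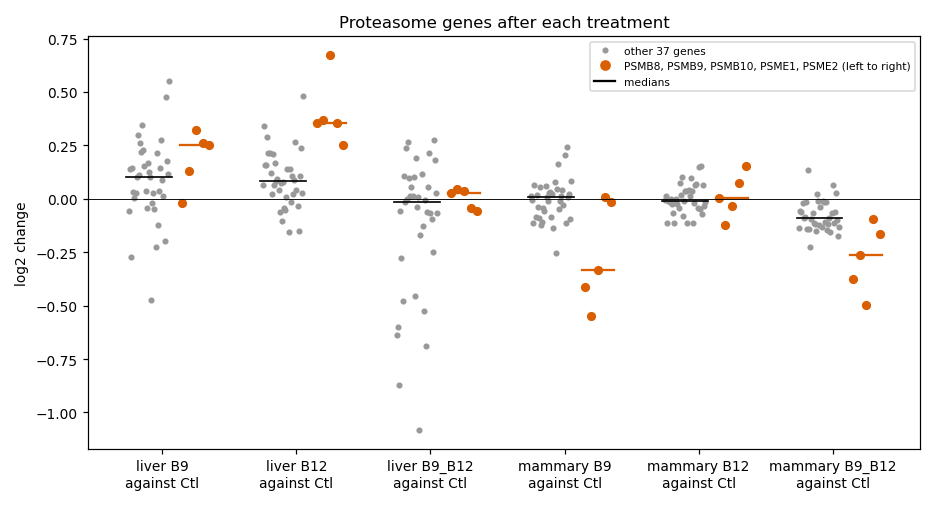
Log2 change against Ctl of each proteasome gene in the 6 comparisons, with 1 grey point for each of the 37 other genes, 1 orange point for each of PSMB8, PSMB9, PSMB10, PSME1 and PSME2 from left to right, and lines at the medians. The orange median is 0.35 in B12 liver and −0.33 in B9 mammary gland; no point passed an adjusted p of 0.05, and the comparisons within a tissue share their Ctl arrays.

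With the groups pooled over the other vitamin, again no proteasome gene passed the adjusted threshold. In mammary gland 5 genes were lower with any B9 at an unadjusted p below 0.05 and 0 higher, where 2.01% of all genes were lower and 1.7% higher at this level. These were PSMB3 (−0.17, SE 0.05), PSMB8 (−0.40, SE 0.12), PSMB10 (−0.40, SE 0.16), PSMC1 (−0.13, SE 0.05) and PSMB2 (−0.12, SE 0.05), each with a limma adjusted p of 0.999. The median of the 5 immunoproteasome genes was −0.35, and −0.33 with the slide as a fixed block. PSMB11 had the smallest p of those above 0, at 0.15. In liver 5 genes had an unadjusted p below 0.05 for any B9, with 10% of all genes at this level. They were PSMA6 (−0.34), PSMA1 (−0.38), PSMA3 (−0.65), PSMD12 (−0.45) and PSMD8 (0.32). PSMA6 was −0.19 without the liver arrays of cows 57 and 32 and −0.077 with the processed signal scaled to its 75th percentile. PSMA3 was 12.26, 12.10 and 11.04 in B9 liver and 10.36 and 12.04 in B9_B12 liver, against 11.89 to 12.20 in Ctl, so that its value came from cows 57 and 32. Any B12 gave 0 genes at this level in liver (2.77% of all genes) and 0 in mammary gland (1.8%). PSMA7 (0.15) and PSMA1 (−0.26) in liver and PSMD10 (0.13) and PSMD3 (−0.06) in mammary gland had the smallest p each way.

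The interaction of B9 with B12 asks whether one vitamin had another effect beside the other. In liver it was below 0 for 38 of 42 proteasome genes, while 51.2% of all genes were above 0, and 6 genes had an unadjusted p below 0.05, with 3.6% of all genes. These were PSMA6 (−0.70, SE 0.21), PSMF1 (−1.10, SE 0.43), PSMA1 (−0.64, SE 0.26), PSMA5 (−0.60, SE 0.25), PSME2 (−0.56, SE 0.24) and PSMB10 (−0.96, SE 0.42), each with a limma adjusted p of 1.00. PSMF1 was 10.50 to 10.67 in Ctl, 10.55 to 11.74 in B9, 10.50 to 11.46 in B12, and 10.64 and 10.41 in B9_B12. The contrast rests on those 2 arrays, 1 of which stood apart. In mammary gland PSMD5 (−0.29), PSMD3 (−0.26), PSMD7 (−0.45) and PSMC1 (−0.24) had an unadjusted p below 0.05, with 3.45% of all genes, and a limma adjusted p of 0.998.

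Whether a vitamin acted differently in the tissues was tested as the effect in liver minus that in mammary gland. This used the scanner signals normalised over all arrays together, not the authors' table. For B9, 4 genes had an unadjusted p below 0.05, with 8.7% of all genes. PSMB3 (0.38, SE 0.13) and PSMC1 (0.23, SE 0.10) were above 0 and PSMA6 (−0.28, SE 0.11) and PSMD12 (−0.44, SE 0.18) below it, with a limma adjusted p of 0.553 each. PSMB8 had a value of 0.26 (SE 0.21), so that its lower mammary signal with B9 was not shown to be particular to that tissue. For B12, PSMA7 alone had an unadjusted p below 0.05 (0.13, SE 0.06, limma adjusted p = 1.00), with 1.6% of all genes.

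The median SD within groups of the 5 immunoproteasome genes was 0.327 in liver and 0.230 in mammary gland, against 0.201 and 0.128 for the other 37 and 0.217 and 0.156 for all genes. Single genes did not follow this order. In liver PSMC6 (0.680) and PSMA3 (0.560) had a larger SD than each of the 5, and in mammary gland that of PSMB5 was 0.265. Across the arrays of a tissue their levels were set against genes of interferon signalling, antigen processing and leukocytes, in 30 relations over which the p-values were adjusted, and those with TAP1 and with LCP1, a leukocyte gene, are given here. With TAP1, Pearson's r was 0.49 to 0.63 in liver (12 arrays; Spearman's rho 0.28 to 0.38) and 0.18 to 0.65 in mammary gland (13 arrays; rho 0.15 to 0.62). None passed an adjusted permutation p of 0.05, and the smallest was 0.0516 for r of PSMB8 in mammary gland. Without the 2 arrays farthest from the median of TAP1, r was 0.22 to 0.51 in liver and −0.34 to 0.30 in mammary gland. After centring on slides r was 0.57 to 0.91 in liver and 0.28 to 0.74 in mammary gland. With LCP1, r was 0.28 to 0.46 in liver (rho 0.17 to 0.44) and −0.07 to 0.29 in mammary gland (rho −0.06 to 0.34), none past the threshold, with an adjusted permutation p of at least 0.193 for r. Centred on groups, r with LCP1 was 0.59 to 0.78 in liver and −0.05 to 0.48 in mammary gland, and centred on slides 0.36 to 0.71 and −0.14 to 0.28. Centred on groups, r with TAP1 was 0.52 to 0.77 and −0.18 to 0.62. These centred values were not tested.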

How the data were processed

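Expression was measured on 25 1-colour Agilent bovine arrays. The authors' scanner files hold linear intensities (median signal and local background per spot, a processed signal, and 0 or 1 calls of background, saturation and outliers, which carry no other unit). The deposited table holds log2 values after background correction with normexp and normalisation between arrays, made by the authors apart in each tissue; the direction and scale were settled by setting it against the intensities (normexp with offset 16 and quantiles, median absolute difference 0.00186 in liver and 0.000959 in mammary gland). The submitters' processing notes name Agilent Feature Extraction 9.1, while the headers of the scanner files name a later version. The genome build behind the probe names differs from that of the RefSeq table used for current symbols (11113 of 27886 names matched), so names alone were joined, no position is given and no sequence was used here.

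Probe means per gene were taken on the log2 scale. Comparisons within a tissue used the deposited log2 values; liver against mammary gland used median intensities with normexp (offset 50) and quantiles over all arrays, less outlier spots. Limma 3.58.1 (R 4.3.3) was fitted on all arrays of the comparison, with treatment within tissue as groups and Benjamini-Hochberg adjustment over all 27841 genes and names. Exchange of catalytic subunits was tested over cows by an exact two-sided permutation test, and correlations used 1e+05 resamples. Figures were drawn with matplotlib 3.10.9 in Python 3.11.15. The fits were tested on simulated data. All columns of samples were used. Samples were grouped by tissue and treatment from the labels. The number of arrays limits the precision.

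The cow number joins liver and mammary gland of the same animal in the labels. Deviations from group means correlated between the tissues of a cow by −0.277 to 0.227 (median 0.05, above 0.1 in 4 of 12 cows), and the block moved no count by over 1.5 times. Named were the 5 immunoproteasome genes and their counterparts, genes at an adjusted p of at most 0.05 (the 4 largest each way, where more than 8), otherwise the smallest p each way, genes whose probes disagreed, and list genes with a 2-fold difference; others named were chosen after their values were seen. The members and lists were chosen with earlier results of these data known. IRF1 and PTPRC, planned for the correlations, matched no name and were replaced after seeing the names, PTPRC by LCP1 and IRF1 by a gene that is not reported here.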

Additional observations from a re-analysis of the deposited data

How the results depend on the processing

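For single genes, the alternatives other than leaving out an array kept the direction and the side of the threshold in 740 instances, with 17 that newly passed, 8 that no longer passed and 45 that turned in direction; for counts and medians 445 instances held, 13 moved and 1 no longer passed. The cause of each change was not tested. In every comparison with Ctl, and with the groups pooled, 0 proteasome genes passed the adjusted threshold under each alternative run, including the slide as a block and Cyber-T. Liver against mammary gland depended most on the scaling. The authors' table gave 42 genes higher and 0 lower, an immunoproteasome median of 1.15, and PSMB8 0.77, PSMB9 1.13, PSMB10 1.15, PSMD8 0.95, PSMC3 1.15, PSME3IP1 0.75 and PSMC2 1.48. Quantiles within each tissue gave 42 and 0, a median of 1.11, and PSMB8 0.74, PSMB9 1.08, PSMB10 1.11, PSMD8 0.94, PSMC3 1.12, PSME3IP1 0.64 and PSMC2 1.47. The processed signal at the 75th percentile gave 4 genes lower and PSMC2 0.11, and normexp with that scaling PSMC2 0.28. The brightest probe gave PSMB7 −0.022, PSMD13 −0.21 and PSMB10 minus PSMB7 −0.16. The slide as a fixed block gave an immunoproteasome median of −0.49 between the tissues and ended the calls of PSMC2 (−0.15, adjusted p = 0.210) and PSMD13 (0.042, adjusted p = 0.828).

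With the cow as a replicate block, which pairs the tissues of an animal, 22 genes were higher and 9 lower (fixed) or 21 and 9 (random), and no count moved by over 1.5 times. Within a tissue no cow appears in 2 groups, so the block could not be used there.

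Without the liver arrays of cows 57 and 32, PSME1 was −0.0082 and PSMB6 −0.020 between the tissues, PSMD13 was 0.11 (adjusted p = 0.131), B9_B12 liver had a median of −0.43 with PSMB8 −0.47, PSMB9 −0.44 and PSMB10 −0.43, and the any-B9 effect in liver minus mammary gland a median of −0.0085. This alternative was chosen after seeing the data.

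The slide as a fixed block gave medians of 0.62 in B9 liver (PSMB8 0.62), −0.22 for any B12 in liver (PSMA1 0.061) and 0.30 for any B9 in liver, PSMC3 −0.24 for the liver interaction, PSME1 0.047 in B9_B12 liver, PSME2 0.053 in B9 mammary gland (0.0013 as a random block), and PSMB9 0.057 and PSMB10 0.10 in B12 mammary gland. The main medians in liver were 0.14 for any B12 and −0.096 for any B9, so both turned in sign with this block. Another alternative gave −0.39 for any B9 in liver. The processed signal gave PSMB8 0.072 in B9 liver and PSME1 0.28 and PSME2 0.21 in B9_B12 liver. Normexp with 75th percentile scaling gave PSMB8 0.040 in B9 liver, PSME1 0.20 and PSME2 0.17 in B9_B12 liver, PSME2 0.078 in B9, PSMB10 0.014 in B12 and PSMD5 −0.0013 in B9_B12 mammary gland, and PSMB11 −0.074 for any B9 in mammary gland. The brightest probe gave PSMB8 −0.039 and PSMB9 −0.028 in B9_B12 liver and PSME1 −0.028 and PSME2 0.021 in B9 mammary gland.

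Leaving out 1 array or cow at a time gave these ranges. In B9 liver PSMB8 was −0.15 to 0.060 and PSMB9 −0.032 to 0.27. In B9_B12 liver the median was −0.43 to 0.50, PSMB8 −0.47 to 0.52, PSMB9 −0.44 to 0.53, PSMB10 −0.43 to 0.50, PSME1 −0.37 to 0.29 and PSME2 −0.25 to 0.13. For the interaction the median was −0.94 to −0.33 and PSMC3 −0.062 to 0.31 in liver, and the median −0.22 to 0.095 in mammary gland. In B9 mammary gland PSME1 was −0.12 to 0.13 and PSME2 −0.10 to 0.057. In B9_B12 mammary gland PSMB9 was −0.36 to −0.12 and PSMB10 −0.77 to −0.27. In B12 mammary gland PSMB8 was −0.10 to 0.13, PSMB9 −0.26 to 0.12 and PSMB10 −0.14 to 0.090. Between the tissues PSMB6 was −0.012 to 0.12, PSME1 −0.0064 to 0.15, PSMB10 −0.35 to −0.14, PSMB5 0.013 to 0.10 and PSME2 0.083 to 0.17. PSMB10 minus PSMB7 was −0.48 to −0.32. Where this left B9_B12 liver with 1 array, that array was assumed to vary like the other groups.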
